A study of Oryctolagus cuniculus with 16 samples.

Results

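The genes described here are the cytokines interleukin 1 (*IL1A*, *IL1B*), interleukin 18 (*IL18*) and tumor necrosis factor (*TNF*), the IL1 receptor antagonist (*IL1RN*), the IL1 receptors *IL1R1* and *IL1R2*, the TNF receptors *TNFRSF1A* and *TNFRSF1B*, and the inflammasome sensor *NLRP3*. These 10 genes were taken by symbol, and each symbol matched 1 row among the 20255 genes of the count table. Femoral heads were taken from 5 rabbits of the Perthes disease group and 3 control rabbits, and total RNA was sequenced after removal of ribosomal RNA. The Perthes disease group is a surgical model of ischemia in wild-type rabbits operated on at 8 weeks of age, made by ligation around the femoral neck together with division of the ligamentum teres. The controls are labelled WT, and the labels list Perthes' disease under genotype although the condition was made by surgery. Sham surgery of the controls and the interval between surgery and sampling are not given in the sources used here. The code and the title of one control disagree on its number (3 and 2), and it is called control rabbit 3.

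*IL1A* and *IL1B* bind IL1R1, which recruits a shared accessory chain and passes the signal through MYD88 and the IRAK kinases to NF-kB. This signal is checked by IL1RN, which occupies the receptor without activating it, and by IL1R2, a decoy that binds IL1 but cannot signal and is carried in quantity by neutrophils. IL1B and IL18 are made as inactive precursors that caspase 1 cleaves on the inflammasome, which NLRP3 nucleates in macrophages and neutrophils, whereas TNF acts through TNFRSF1A on most cells and through TNFRSF1B mainly on leukocytes and endothelium. In bone and cartilage these cytokines are known for driving osteoclast formation and the breakdown of cartilage matrix.

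The library totals were 27331725 to 29461482 counts in the Perthes disease group and 26757087 to 28783082 in the control group. Levels are given in CPM, which are counts divided by the TMM-scaled library size, and levels of different genes are not ranked because transcript lengths were not available. In a principal component analysis of all tested genes, the first component held 56.1% of the variance. It placed the controls between 49.0 (control rabbit 3) and 97.0 (control rabbit 1). The Perthes rabbits lay between -93.65 (Perthes rabbit 1) and 5.21 (Perthes rabbit 2). The second component (13.1% of the variance) placed Perthes rabbit 4 at -78.4 and the other 7 rabbits between -7.51 and 27.5. The labelled tissue was checked against marker lists. Chondrocyte markers summed to between 39789 and 154540 CPM over the 8 libraries and osteoblast and osteocyte markers to between 1187 and 3097 CPM. Skeletal muscle markers did not exceed 60.7 CPM. Neutrophil markers, whose summed level was 5216 to 16730 CPM in controls and 505 to 2577 CPM in Perthes rabbits, and erythroid markers (4900 to 5579 CPM and 32.8 to 2298 CPM) had no overlap between the groups. In such bulk tissue, fewer cells of a type and less RNA per cell cannot be told apart.

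Among the 10 genes, the decoy receptor *IL1R2* fell in the Perthes disease group by 2.14 on the log2 scale, and it was the only one called by edgeR's quasi-likelihood test at a Benjamini-Hochberg adjusted p below 0.05. Of the 9 genes tested, 1 was thus called, against 15.1% of all 15305 tested genes in either direction. It was lower, where 8.86% of all genes were, and 0 were called higher, where 6.21% of all genes were. At an unadjusted p below 0.05, 4 of the 9 passed (*IL1R2* and *NLRP3* lower, *IL1R1* and *TNFRSF1A* higher), compared with 31.9% of all genes. The paper's tool, DESeq2, called *IL1R2* lower and both *IL1R1* and *TNFRSF1A* higher, and 20.7% of all genes it tested were called. The libraries of the groups did not overlap for *IL1R1*, *IL1R2* and *TNFRSF1A*, or 3 of the 9, whereas 25.2% of all tested genes had groups apart. The median log2 fold change of the 9 genes was 0.04 and that of all tested genes 0.02. *IL1A* had too few counts for the test. These counts lie near those of all genes, and the genes are therefore described one by one.

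**Figure D1:**
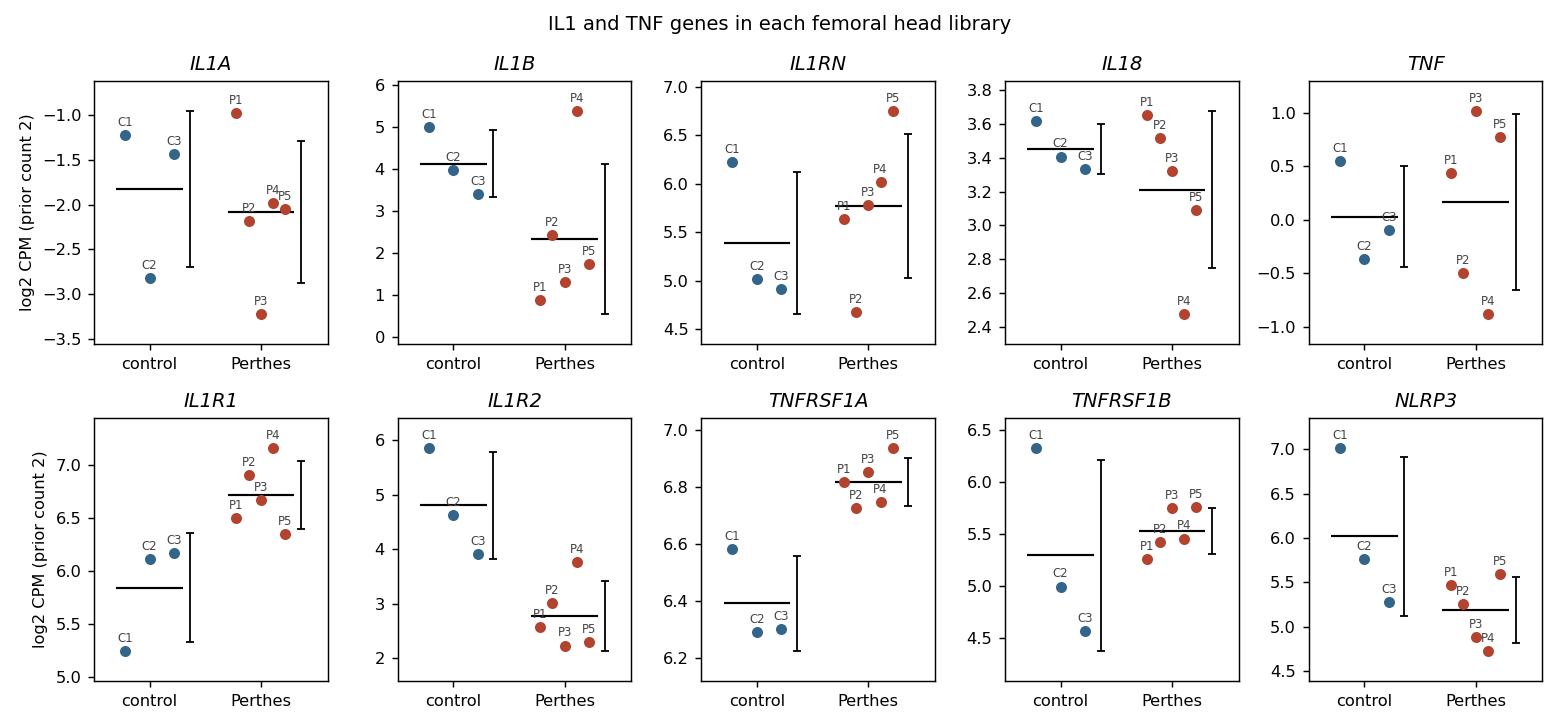
Level of each of the 10 genes as log2 CPM (y axis, prior count of 2) in 3 control (C1 to C3) and 5 Perthes (P1 to P5) libraries, each point 1 rabbit, with the group mean as a horizontal line and the SD as a bar at its right. The groups are apart for *IL1R1*, *IL1R2* and *TNFRSF1A*, and P4 stands above every other library for *IL1B*.

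*IL1B* (gene 100008990), the cytokine released after cleavage by caspase 1, had 31.8, 15.7 and 10.6 CPM in control rabbits 1 to 3 and 1.76, 5.32, 2.39, 41.4 and 3.23 CPM in Perthes rabbits 1 to 5. Perthes rabbits 1, 2, 3 and 5 were each below all controls, while Perthes rabbit 4 was above all of them and held 76.3% of the *IL1B* counts of its group. Perthes rabbits averaged 10.8 ± 17.1 CPM (SD, n = 5) and controls 19.4 ± 11.05 CPM (SD, n = 3). The estimated change was -0.84 on the log2 scale, with a 95% interval from -3.08 to 1.40 (adjusted p = 0.595 from edgeR). Without Perthes rabbit 4 the log2 fold change was -2.61 and the adjusted p 0.0130 in edgeR, so that 1 library decided the call.

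*IL1A* (100009250), the form of the cytokine that is active without cleavage and is released by dying cells, was close to the limit of detection. It had 10, 2 and 9 counts in the controls and 13, 4, 1, 5 and 5 counts in the Perthes rabbits. The groups overlapped, with means of 0.242 ± 0.152 CPM (SD, n = 3) and 0.196 ± 0.148 CPM (SD, n = 5), and a two-sided exact permutation test of log2 CPM gave p = 0.750. No difference in *IL1A* was detected at 1 to 13 counts in a library.

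*IL1RN* (100009558), which encodes the receptor antagonist, had 74.9, 32.3 and 30.1 CPM in the controls and 49.7, 25.4, 55.0, 64.5 and 107 CPM in the Perthes rabbits. Control rabbit 1 lay above 4 of the 5 Perthes rabbits, whereas Perthes rabbit 2 was the lowest of the 8. The log2 fold change of 0.40 had a 95% interval from -0.63 to 1.43 (adjusted p = 0.581 from edgeR), which leaves room for a change in either direction.

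*IL18* (100144338), the other cytokine that the inflammasome releases, was the steadiest ligand. It had 12.2, 10.5 and 10.01 CPM in the controls and 12.5, 11.4, 9.91, 5.49 and 8.44 CPM in the Perthes rabbits, with the lowest value in Perthes rabbit 4. The change was -0.19 on the log2 scale (95% interval from -0.78 to 0.39, adjusted p = 0.643 from edgeR).

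*TNF* (100009088) was covered by 13 to 53 counts in a library. Its level was 1.39, 0.705 and 0.865 CPM in the controls and 1.28, 0.637, 1.95, 0.473 and 1.63 CPM in the Perthes rabbits. Both the 2 highest and the 2 lowest libraries were Perthes rabbits. On the log2 scale the change was 0.28 (95% interval from -0.87 to 1.42, adjusted p = 0.740 from edgeR).

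*IL1R1* (100352905), the receptor that carries the IL1 signal, had 38.0, 69.2 and 71.7 CPM in the controls and 90.3, 120, 102, 143 and 81.3 CPM in the Perthes rabbits. Every Perthes rabbit was above every control. Perthes rabbits averaged 107 ± 24.5 CPM (SD, n = 5) and controls 59.6 ± 18.8 CPM (SD, n = 3). The log2 fold change of 0.84 (standard error 0.27, 95% interval from 0.24 to 1.45) had an adjusted p of 0.0636 in edgeR and did not pass the threshold, while DESeq2 gave 0.85 with an adjusted p of 0.0251.

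*IL1R2* (100344048), the decoy receptor, had 57.7, 24.8 and 15.0 CPM in the controls and 5.84, 8.01, 4.63, 13.5 and 4.83 CPM in the Perthes rabbits. The groups did not overlap, although Perthes rabbit 4 lay just under control rabbit 3 and control rabbit 1 held 58.3% of the control counts. Controls averaged 32.5 ± 22.4 CPM (SD, n = 3) and Perthes rabbits 7.37 ± 3.70 CPM (SD, n = 5). This corresponds to a 4.41-fold lower level, or a log2 fold change of -2.14 (standard error 0.47, 95% interval from -3.21 to -1.07, adjusted p = 0.0211 from edgeR and 3.68e-04 from DESeq2). Leaving out Perthes rabbit 3, Perthes rabbit 5, control rabbit 1 or control rabbit 2 kept the direction, at log2 fold changes of -2.01, -2.01, -1.43 and -2.30, but ended the call, with adjusted p-values of 0.0538, 0.0567, 0.0959 and 0.0591 in edgeR. The neutrophil marker sum was also lower in the Perthes disease group, as was the erythroid sum. Of the 9 neutrophil markers with a row in the table, 4 were called lower and 0 higher, at a median log2 fold change of -3.63. Over all tested genes, 8.86% were called lower and 6.21% higher. Control rabbit 1 had the highest neutrophil sum among all libraries, as it had the highest *IL1R2*. The neutrophil list includes *MMP9*, a gelatinase that osteoclasts also make, which supplied 49.2% to 95.7% of the sum in Perthes rabbits. It was the only one of the 9 that did not fall (log2 fold change 0.34, adjusted p = 0.558 in edgeR). Its omission was chosen after the values were seen. Without *MMP9* the other 8 markers summed to 16125, 4693 and 4279 CPM in the controls and to 21.5, 1310, 470 and 1263 CPM in Perthes rabbits 1 to 4 and 147 CPM in Perthes rabbit 5. Perthes rabbits 2 and 4 were the highest of their group both in this sum and in *IL1R2*. Perthes rabbit 1 was the lowest in the sum but had more *IL1R2* than Perthes rabbits 3 and 5. The part of neutrophil content in the fall of *IL1R2* was not tested.

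*TNFRSF1A* (100346106), the TNF receptor of most cell types, varied least among the Perthes rabbits (coefficient of variation 5.85%, and 11.8% among the controls). It had 95.8, 78.3 and 78.9 CPM in the controls and 113, 106, 115, 108 and 122 CPM in the Perthes rabbits, and the groups did not overlap. Perthes rabbits averaged 113 ± 6.61 CPM (SD, n = 5) and controls 84.3 ± 9.96 CPM (SD, n = 3). On the log2 scale this was a change of 0.42 (standard error 0.14, 95% interval from 0.09 to 0.75), with an adjusted p of 0.0798 in edgeR, which missed the threshold, and of 0.0236 in DESeq2.

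*TNFRSF1B* (100349872), the TNF receptor of leukocytes and endothelium, had 80.0, 31.8 and 23.6 CPM in the controls and 38.2, 42.8, 53.8, 43.8 and 54.1 CPM in the Perthes rabbits. All 5 Perthes rabbits lay between control rabbit 1 and the other controls. Over all libraries the log2 fold change was 0.04 (95% interval from -0.76 to 0.85, adjusted p = 0.943 from edgeR). Without control rabbit 1 it was 0.75 with an adjusted p of 0.0855 in edgeR.

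*NLRP3* (100351623), the sensor on which the inflammasome assembles, had 129, 54.3 and 38.7 CPM in the controls and 44.2, 38.0, 29.4, 26.5 and 48.3 CPM in the Perthes rabbits. Perthes rabbits 2, 3 and 4 were below all controls and none was above control rabbit 2. Perthes rabbits averaged 37.3 ± 9.36 CPM (SD, n = 5) and controls 74.06 ± 48.3 CPM (SD, n = 3), which on the log2 scale was a change of -0.99 (standard error 0.37, 95% interval from -1.83 to -0.15, adjusted p = 0.103 from edgeR). Without control rabbit 1, which held 57.2% of the control counts, the log2 fold change was -0.32 with an adjusted p of 0.498 in edgeR, and without control rabbit 3 it was -1.30 with an adjusted p of 0.0469.

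**Figure D2:**
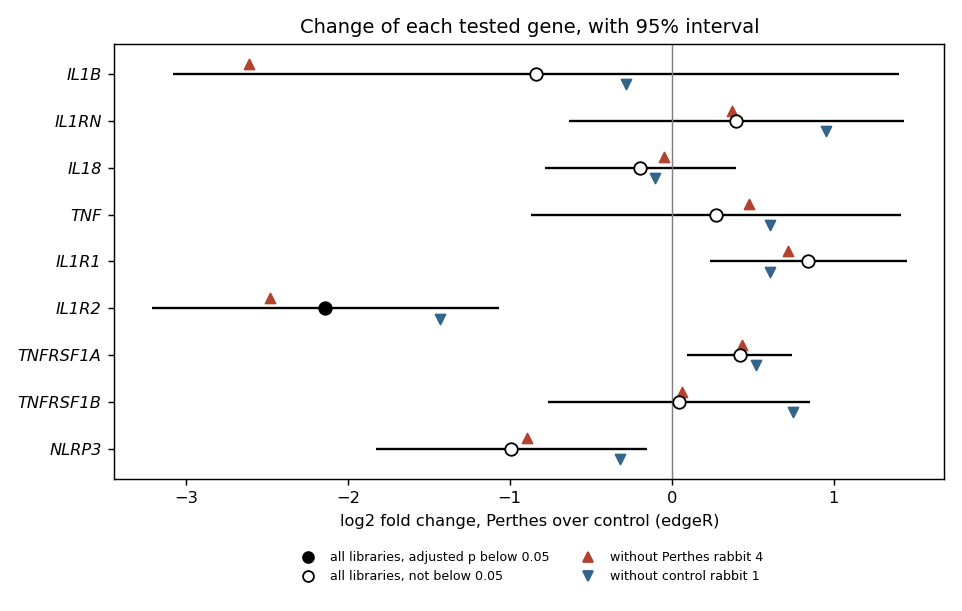
Log2 fold change of Perthes over control (x axis) for the 9 tested genes, with the 95% interval from edgeR as a line and a filled circle where the adjusted p is below 0.05. Triangles give the value without Perthes rabbit 4 (up) or without control rabbit 1 (down): *IL1B* moves from -0.84 to -2.61 without Perthes rabbit 4, and *IL1R2* from -2.14 to -1.43 without control rabbit 1.

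Some libraries stood out in several of the genes. Control rabbit 1 had the highest level among the controls in 9 of the 10 genes and the lowest in the remaining one, *IL1R1*, while over all tested genes it was the highest control in 42.0%. Its macrophage and monocyte markers summed to 2247 CPM, against 1002 and 1145 CPM in the other controls, and its neutrophil markers to 16730 CPM, against 5839 and 5216 CPM. Of its macrophage and monocyte sum, *LYZ* supplied 1077 CPM and *ITGAM* 732 CPM. Perthes rabbit 4 had the highest *IL1B*, *IL1R1* and *IL1R2* of its group and the lowest *IL18*, *TNF* and *NLRP3*. It had the highest chondrocyte marker sum of all libraries (154540 CPM) and the lowest macrophage and monocyte sum (781 CPM). Perthes rabbit 5 was the highest of its group in 4 of the 10 genes (*IL1RN*, *TNFRSF1A*, *TNFRSF1B* and *NLRP3*), against 11.4% of all tested genes, and Perthes rabbit 4 in 3 of the 10, against 21.8%. Perthes rabbit 5 had the highest osteoclast marker sum (4517 CPM), of which *CTSK* supplied 3773 CPM. Of the other osteoclast markers, *TNFRSF11A*, *CALCR* and *NFATC1* were highest in Perthes rabbit 5. *ATP6V0D2* and *DCSTAMP* were highest in Perthes rabbit 1, and *ACP5* and *OCSTAMP* in Perthes rabbit 3. The part of these cell types in the levels of the cytokine genes was not tested. Macrophage and monocyte markers as a list overlapped between the groups, with 781 to 2186 CPM in Perthes rabbits and 1002 to 2247 CPM in controls. In Perthes rabbit 4, the Perthes rabbit with the lowest sum, *LYZ* and *ITGAM* were at 236 and 93.9 CPM. They were at 1077 and 732 CPM in control rabbit 1, the control with the highest sum. Of the 9 genes of this list, 4 were called higher, among them the endotoxin co-receptor *CD14* and the lysosomal *CD68*, and 1 was called lower, the lysozyme gene *LYZ*, which neutrophils also express. *CD163*, *ADGRE1*, *MSR1* and *ITGAM* were not called. Over all tested genes, 6.21% were called higher and 8.86% lower. None of the 12 marker lists held a gene that stayed at or under 3 counts in every library.

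**Figure D3:**
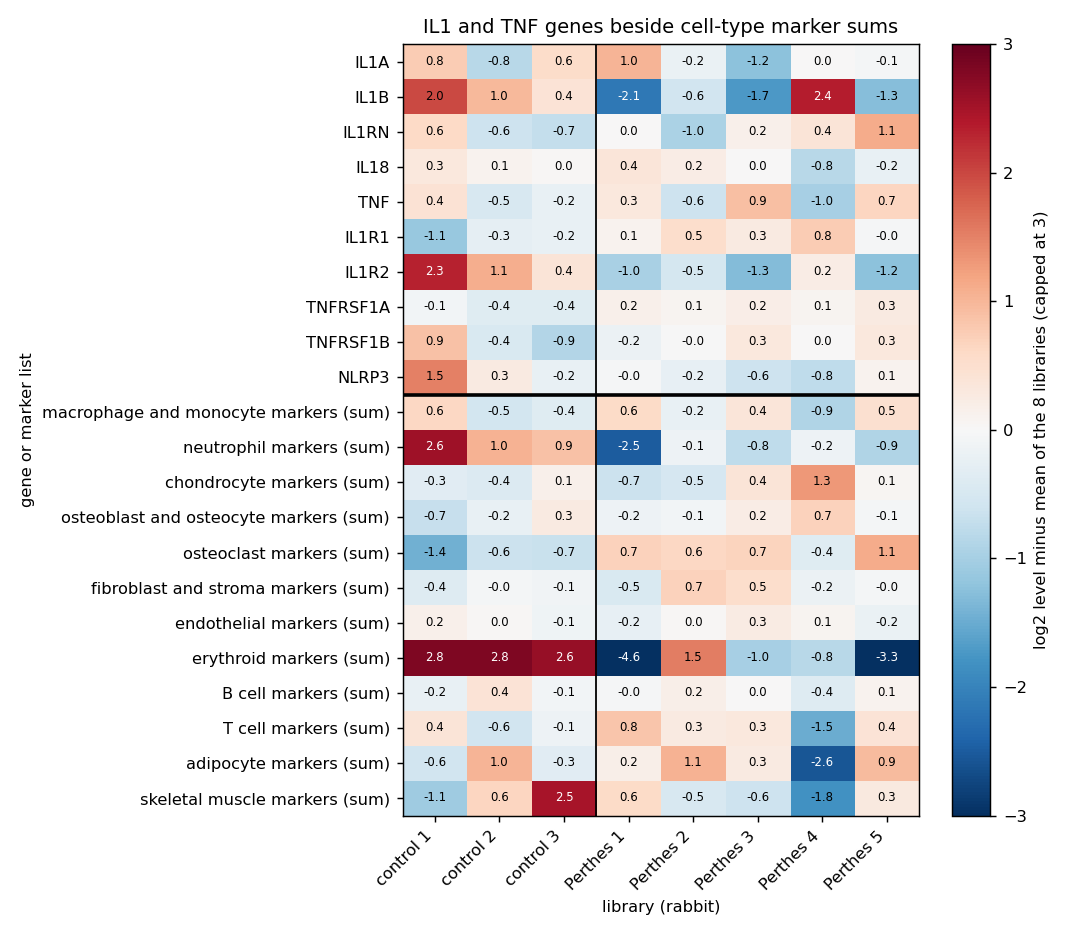
Log2 level of each gene (top 10 rows) and of the summed CPM of each of 12 marker lists (lower rows) in every library, minus the mean of the 8 libraries, with red above and blue below that mean. *IL1R2* and the neutrophil sum are both highest in control 1, and *IL1B* is highest in Perthes 4, where the chondrocyte sum is highest as well.

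A ratio of partner genes within a library does not depend on the scaling between libraries, so 4 such ratios were compared between the groups. Their size includes the unequal lengths of the transcripts, so that only differences between libraries can be read. *IL1R2* counts were 1.52, 0.358 and 0.209 times those of *IL1R1* in control rabbits 1 to 3 and 0.0649, 0.0671, 0.0457, 0.0949 and 0.0596 times in Perthes rabbits 1 to 5. The decoy was lower relative to the signaling receptor in every Perthes rabbit than in any control, by 7.50-fold on average (log2 difference -2.91; exact permutation test, two-sided p = 0.0357, which is the lowest that 5 and 3 rabbits can give, and 0.0714 after adjustment over the 4 ratios). The ratio of *IL18* to *IL18BP*, its soluble inhibitor, was 1.36, 1.59 and 1.53 in the controls and 0.626, 0.721, 0.422, 0.337 and 0.821 in the Perthes rabbits. It was lower in all Perthes rabbits, by 2.68-fold on average (log2 difference -1.42; exact permutation test, p = 0.0357, adjusted p = 0.0714). The ratio of *IL1B* to *IL1RN* was 0.424, 0.487 and 0.352 in the controls and 0.0357, 0.210, 0.0437, 0.642 and 0.0303 in the Perthes rabbits. It was lower in 4 of 5 Perthes rabbits and highest of all in Perthes rabbit 4 (log2 difference -2.19; exact permutation test, p = 0.143, adjusted p = 0.190). The ratio of *TNFRSF1B* to *TNFRSF1A* overlapped between the groups (log2 difference -0.19; exact permutation test, p = 0.679). None of the 4 passed 0.05 after adjustment, which 2 of 4 ratios at the lowest possible p of 0.0357 could not do.

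**Figure D4:**
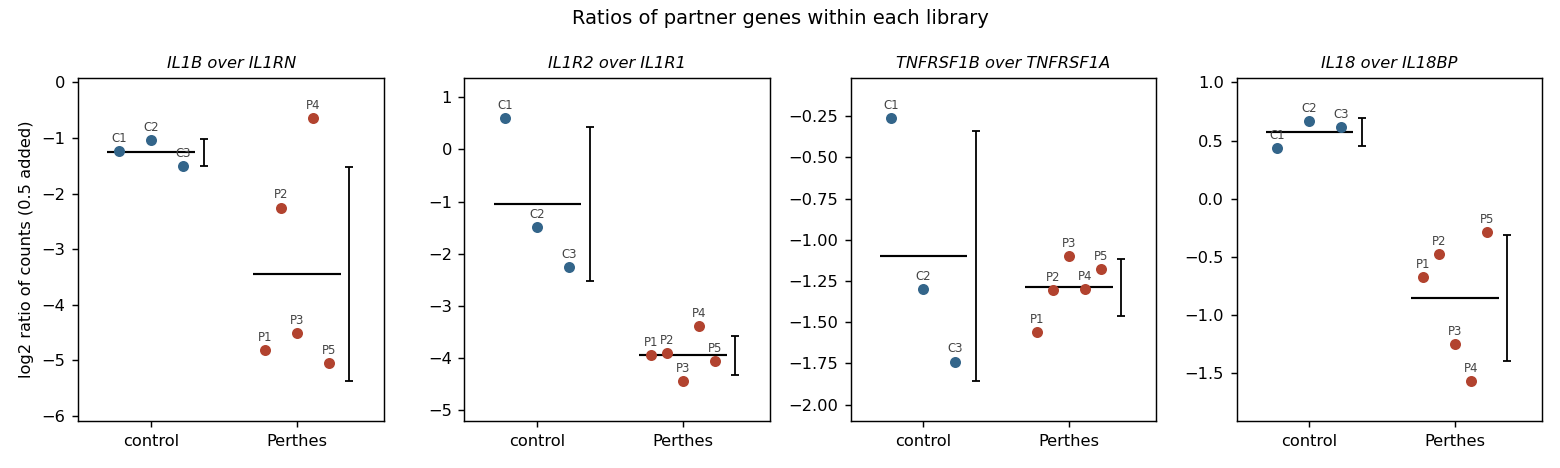
Log2 ratio of the counts of partner genes in each library (y axis, 0.5 added to each count), for 3 control and 5 Perthes rabbits, with group means as lines and the SD as bars. The groups are apart for *IL1R2* over *IL1R1* and for *IL18* over *IL18BP*, and P4 is the only Perthes library above the controls for *IL1B* over *IL1RN*.

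Genes that transmit the signals of these cytokines were followed in 6 lists, which named 102 genes, of which 87 had a row and 81 were tested. Of these, 13 were called higher and 7 lower by edgeR, where 6.21% and 8.86% of all genes were. In the list of other IL1 family ligands and antagonists, *IL18BP* was the only gene with enough counts. It averaged 7.38 ± 1.40 CPM in controls (SD, n = 3) and 17.2 ± 4.97 CPM in Perthes rabbits (SD, n = 5), and rose by a log2 fold change of 1.22 (adjusted p = 0.0226 from edgeR), with the lowest Perthes rabbit at 10.3 CPM and the highest control at 9.003 CPM. Leaving out any one control, or Perthes rabbit 3, ended this call, with log2 fold changes from 1.08 to 1.39 and adjusted p-values of up to 0.0940 in edgeR over all 8 omissions.

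Of 14 tested IL1 family receptors and proximal adaptors, 3 fell and 1 rose. Both chains of the IL18 receptor fell. The ligand-binding chain *IL18R1* averaged 6.33 ± 2.72 CPM in controls (SD, n = 3) and 1.86 ± 0.764 CPM in Perthes rabbits (SD, n = 5), with a log2 fold change of -1.76 (adjusted p = 0.0210 from edgeR). The accessory chain *IL18RAP* had 24.7, 6.81 and 8.18 CPM in the controls and 0.878 to 3.20 CPM in the Perthes rabbits, a log2 fold change of -2.76 (adjusted p = 0.0154 from edgeR). *IRAK3*, a kinase-like protein that dampens IL1 and Toll-like receptor signaling in monocytes, had 72.5, 41.2 and 35.1 CPM in the controls and 5.98 to 17.4 CPM in the Perthes rabbits, a log2 fold change of -2.29 (adjusted p = 0.0133 from edgeR). *IL1RL2*, the IL36 receptor, rose, with 4, 1 and 1 counts in the controls and 96, 21, 10, 57 and 30 in the Perthes rabbits (log2 fold change 4.34, adjusted p = 0.0184 from edgeR), and without any one control it was not called. The 3 genes that fell were not called without control rabbit 1, which had the highest level of each, as of the neutrophil marker sum. *IL18R1* was then at a log2 fold change of -1.35, *IL18RAP* at -1.94 and *IRAK3* at -1.91, with adjusted p-values of 0.0944, 0.0684 and 0.0514 in edgeR. They were not called without control rabbit 2 either, nor *IL18R1* without Perthes rabbit 5. Neutrophil markers fell beside these genes (4 of 9 called lower, against 8.86% of all tested genes), and their part was not tested. The median log2 fold change of the list was 0.06. *MYD88*, *IRAK1*, *IRAK4* and *IL1RAP* had adjusted p-values of 0.868, 0.623, 0.677 and 0.408 in edgeR.

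The inflammasome list had 8 tested genes, of which *CASP1*, the caspase that cleaves IL1B and IL18, fell. It had 24.2, 10.5 and 11.8 CPM in the controls and 8.82, 8.50, 6.87, 4.77 and 6.60 CPM in the Perthes rabbits, all below the controls (log2 fold change -1.12, adjusted p = 0.0407 from edgeR). The call was lost without control rabbit 1 (log2 fold change -0.65, adjusted p = 0.170 in edgeR), without control rabbit 2, and without Perthes rabbit 3, 4 or 5. The pore-forming *GSDMD* had a log2 fold change of -0.25 with an adjusted p of 0.729 in edgeR. Of 17 tested genes of TNF production and proximal TNF receptor signaling, 2 fell. These were *LTB*, a lymphocyte-derived TNF relative, at a log2 fold change of -2.09 (adjusted p = 0.0144 from edgeR), and *BIRC2*, a ubiquitin ligase of the TNF receptor complex, at -0.76 (adjusted p = 0.0320 from edgeR). *LTB* was not called without control rabbit 1 or 2, and *BIRC2* not without control rabbit 2 or 3 or Perthes rabbit 3 or 5. The sheddase *ADAM17*, which releases TNF and cleaves TNF receptors, was at 0.80 with an adjusted p of 0.0776 in edgeR. Of 14 tested NF-kB core genes, 1 fell and 1 rose. *TAB3*, an adaptor of the kinase TAK1, fell, with 60.9, 64.1 and 67.05 CPM in the controls and 24.3 to 34.5 CPM in the Perthes rabbits (log2 fold change -1.13, adjusted p = 0.0118 from edgeR). *NFKBIE*, an inhibitor of NF-kB that is itself induced by it, rose by 0.76 on the log2 scale (adjusted p = 0.0492 from edgeR). *TAB3* lost its call among the omissions only without control rabbit 2 (adjusted p = 0.0519 in edgeR). *NFKBIE* was not called in 10 of its 14 repeated tests, among them those with library totals alone, with either other low-count filter, and without any one control or Perthes rabbit 2, 3 or 5, while its direction stayed the same.

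Of the 20 calls in these lists, 10 were in the list of genes known to respond to IL1 and TNF, where 10 of 27 tested genes rose and 0 fell at an adjusted p below 0.05, with a median log2 fold change of 1.53. Over all tested genes, 6.21% were called higher and 8.86% lower. This list, like the others, was chosen with earlier results of these data known. At an unadjusted p below 0.05 edgeR had 19 of the 27, where 31.9% of all genes passed. DESeq2 called 17 of the 29 listed genes with a row higher and 0 lower. Of all 17451 genes it tested, it called 1700 higher and 1917 lower. By size of the change the first 3 were the collagenase *MMP1*, the stromelysin *MMP3* and the acute-phase gene *SAA3*. *MMP1* had 0, 2 and 18 counts in the controls and 424 to 7565 in the Perthes rabbits, and *MMP3* had 1, 1 and 9 counts against 51 to 3601. Their log2 fold changes of 8.43 and 8.17 depend on the prior count. *SAA3* had 8.93, 3.70 and 14.1 CPM in the controls and 172, 56.6, 101, 923 and 272 CPM in the Perthes rabbits, a log2 fold change of 5.09 (adjusted p = 0.0183 from edgeR). The other 7, named after their values were seen, were the chemokines *CCL2* and *CCL20*, the adhesion molecule *ICAM1*, the hyaluronan-binding *TNFAIP6*, *TNFAIP2*, the aggrecanase *ADAMTS4* and the transcription factor *CEBPB*. *ICAM1* had 26.8, 23.8 and 23.1 CPM in the controls and 54.4, 72.1, 76.3, 84.3 and 78.5 CPM in the Perthes rabbits (log2 fold change 1.57, adjusted p = 0.0118 from edgeR). *CCL20* had 1 count in each control and 3 to 30 in the Perthes rabbits, a ratio of 14.2 with a 95% counting interval from 4.65 to 70.3. The NF-kB target *TNFAIP3* was at a log2 fold change of -0.06 with an adjusted p of 0.837 in edgeR. *IL6*, the acute-phase cytokine, was removed by the filter, with 3, 0 and 1 counts in the controls and 38, 7, 10, 512 and 9 in the Perthes rabbits, each above all controls. Without control rabbit 2 no gene of the 6 lists was called, and without control rabbit 1 or 3 the response list had 4 or 6 calls. Without control rabbit 1, *MMP1*, *MMP3* and *SAA3* were not called (adjusted p = 0.0545, 0.108 and 0.0808 in edgeR). Nor were *TNFAIP2*, *TNFAIP6*, *CCL2* and *CCL20*, while *ICAM1*, *ADAMTS4* and *CEBPB* were. *MMP3* also lost its call without control rabbit 3 or Perthes rabbit 5. Macrophage, osteoclast and stromal markers, which include cells that express many of these genes, had 4 of 9, 2 of 8 and 3 of 8 genes called higher. That compares with 6.21% of all tested genes, and 1 macrophage marker was called lower. The chondrocyte, osteoblast and osteocyte, and adipocyte lists had 0 genes called in either direction. The part of these cell types was not tested.

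**Figure D5:**
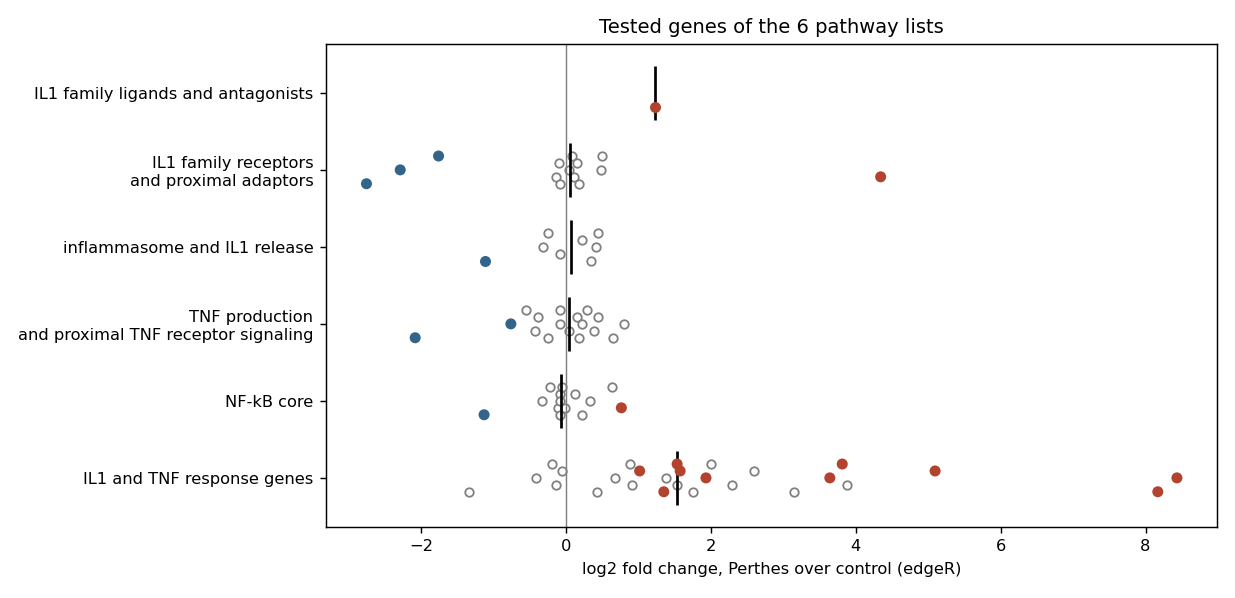
Log2 fold change of Perthes over control (x axis, edgeR) for the 81 tested genes of 6 lists, with filled points for adjusted p below 0.05 (red higher, blue lower), open points for the others and a vertical line at the median of each list. The response genes hold 10 of the 13 red points, at a median of 1.53, while the medians of the adaptor, inflammasome, TNF signaling and NF-kB lists lie between -0.07 and 0.07. Over all tested genes, 6.21% were called higher, and the lists were chosen with earlier results of these data known.

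Perthes rabbit 4, which had the highest *IL1B*, was also the highest Perthes rabbit in 16 of the 29 response genes with a row (55.2%), against 21.8% of all tested genes, a count made after the values were seen. It held 87.1% of the Perthes counts of *CXCL8*, the neutrophil chemokine, 82.3% of *NOS2*, the inducible nitric oxide synthase, and 77.3% of *PTGS2*, the inducible cyclooxygenase, and 88.9% of *IL6*. *CXCL8* had 23.5, 11.2 and 6.05 CPM in the controls and 4.96, 5.92, 2.68, 201 and 14.9 CPM in the Perthes rabbits. *PTGS2* had 3.57, 4.80 and 7.18 CPM in the controls and 12.2, 7.94, 4.85, 297 and 57.8 CPM in the Perthes rabbits. As for *IL1B*, the groups overlapped for both genes, and their adjusted p-values were 0.428 and 0.103 in edgeR. Without Perthes rabbit 4, where *IL1B* was called lower, the response list also had 10 genes called higher.

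The genes were also compared by the shape of their levels over the 8 libraries, as the root mean square difference of standardized log2 CPM, where 0 means the same shape. Among the 9 tested genes, *IL1B* and *IL1R2* were each other's nearest at 0.573, and *IL1R2* was also nearest to *NLRP3* at 0.770. *IL1RN* and *TNFRSF1B* were each other's nearest at 0.780. *IL1R1* had no close counterpart, its nearest being *TNFRSF1A* at 1.07. Over all tested genes with a symbol, the closest to *IL1R2* were *ST6GALNAC2* (0.146) and *MED30* (0.191), to *IL1B* were *ACLY* (0.246) and *CCRL2* (0.264), and to *TNFRSF1A* were *IRAK1BP1* (0.143) and *CEBPB* (0.157). The nearest to *NLRP3* were *FAM107B* (0.196) and *DOCK5* (0.244), and to *IL1R1* were *BFSP1* (0.234) and *GOLGA3* (0.265). The nearest to *IL1RN* were *SLC11A1* (0.329) and *ANKRD52* (0.344), to *IL18* were *GK* (0.213) and *AVL9* (0.268), to *TNF* were *APTX* (0.241) and *MRPL14* (0.283), and to *TNFRSF1B* were *MPLKIP* (0.219) and *TBC1D1* (0.240). With 15305 genes and 8 libraries, close shapes are numerous, and the values are descriptive.

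In position, 5 of the genes lie on chromosome 2 of the RefSeq rabbit assembly mOryCun1.1, which is not the assembly the reads were mapped to. There, *IL1R1* and *IL1R2* are neighbours with 0 coding genes between them (log2 fold changes of 0.84 and -2.14), and *IL1A* and *IL1B* are separated by 1 coding gene, *IL37*. Between *IL1B* and *IL1RN* lie 4 coding genes, all of the IL1 family. In the annotation of the authors' table, 9 of the 10 genes belong to cytokine-cytokine receptor interaction and 8 to the inflammatory response, and 5 (*IL1A*, *IL1B*, *TNF*, *IL1R1* and *TNFRSF1A*) belong to osteoclast differentiation.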

How the data were processed

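Total RNA libraries of 8 rabbits were used, and the small RNA counts were not used here. According to the methods and the labels, the authors cleaned reads (SOAPnuke 1.5.2), aligned them (HISAT2 2.0.4) and counted them per gene (RSEM 1.1.17, HTSeq 1.99.2). The values the authors deposited are expected counts, which are estimates without normalization. Values that were not whole (10.01% to 10.7% in a library) were rounded. A further 8 columns repeat those used and were left out.

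Counts were scaled by TMM, filtered by filterByExpr and tested with the quasi-likelihood F-test of edgeR 4.0.16 (R 4.3.3), with Benjamini-Hochberg adjustment over 15305 genes. Standard errors are the log2 fold change divided by the square root of F, and 95% intervals use the t distribution of that test. The common biological coefficient of variation between rabbits was 0.361. Ratios were tested by exact permutation over 56 divisions of the rabbits (scipy 1.17.1). The interval for *CCL20* is exact (Clopper-Pearson) and covers counting error only. Genes were matched by symbol, or for 6 listed genes by gene ID in RefSeq. *PYCARD* was not analysed here, so its planned ratio to *NLRP3* was not formed.

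The 10 genes and all lists were chosen with earlier results of these data known. Within the lists, the named genes were up to 3 called genes in each direction by size of change, the partners of ratios and the nearest genes, and others were named after their values were seen. The alternatives were DESeq2 1.42.0, other scalings and filters, the paper's thresholds, a block for the replicate number, and omission of one rabbit at a time. On simulated counts for 15305 genes in the comparison of Perthes with control, edgeR recovered 91 of 100 genes altered by 2 on the log2 scale and 98 of 100 altered by 3, with 11 wrong calls, and DESeq2 recovered 93 and 98, with 42 wrong calls. The simulation used a biological coefficient of variation of 0.36 for every gene. It had no library that stood out in single genes and no smaller changes.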

Additional observations from a re-analysis of the deposited data

How the results depend on the processing

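The 9 tested genes kept their direction and their side of the threshold in 110 of 126 repeated tests, 14 for each gene. The fall of *IL1R2* kept its direction in all 14 of its fits, between -2.48 and -1.43, and lost the call in 5. Directions turned in 7 tests of genes that were not called. For *TNFRSF1B* the log2 fold change was -0.036 with library totals alone and -0.013, -0.011, -0.16 and -0.26 without Perthes rabbit 3, Perthes rabbit 5, control rabbit 2 and control rabbit 3. Without control rabbit 1 it was 0.75. With the replicate block, the log2 fold change of *IL1RN* was -0.030 and that of *IL18* 0.044. The log2 difference of the *TNFRSF1B* to *TNFRSF1A* ratio turned to 0.0045 as a difference of medians and to 0.23 without control rabbit 1. With one rabbit left out this ratio ranged from -0.51 to 0.23, that of *IL1R2* to *IL1R1* from -3.51 to -2.08, that of *IL18* to *IL18BP* from -1.57 to -1.24 and that of *IL1B* to *IL1RN* from -2.89 to -1.79, in designs too small to reach an exact p of 0.05.

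DESeq2 called 2 of the 10 genes higher and 1 lower, and 1700 of all genes higher and 1917 lower, against 951 and 1356 in edgeR. On simulated counts DESeq2 made 42 wrong calls and edgeR 11. Those counts gave every gene the same spread between rabbits, so they do not tell which of the calls here are wrong. DESeq2 called 23 genes of the pathway lists higher, against 13. With at least 10 counts in every library, 7 were called higher. At the paper's thresholds (log2 fold change above 2 or below -2, adjusted p below 1e-05), 0 of all genes were called by edgeR in either direction, where 4883 had an unadjusted p below 0.05. The paper applied these thresholds to DESeq2 and reported genes that passed. Among the pathway genes called by edgeR, DESeq2 here placed *MMP1* (log2 fold change 8.50, adjusted p = 7.33e-08) and *SAA3* (5.12, 7.33e-09) beyond both. So it did for *MMP3* (8.27, 1.36e-06) and *CCL2* (3.87, 8.01e-06), and for *IRAK3* in the lower direction (-2.29, 4.95e-06). *IL1R2* (adjusted p = 3.68e-04 in DESeq2) did not pass both. All genes were not counted at these thresholds in DESeq2. With library totals alone, 71.5% of all calls were lower, against 58.8%. Without one rabbit at a time, the 10 genes had 0 calls higher and 0 to 2 lower, the pathway lists 0 to 14 higher and 0 to 8 lower, and all genes 0 to 1267 higher and 0 to 1628 lower. The 0 came without control rabbit 2, where 1624 genes were higher and 2098 lower at an unadjusted p below 0.05. The cause of these differences was not tested.

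With the replicate number as a block, 0 of the 10 genes, 0 of the pathway lists and 0 of all genes were called, while 1504 were higher and 1648 lower at an unadjusted p below 0.05, and *IL1R2* had an adjusted p of 0.119 in edgeR. Perthes rabbits without a control of the same number add nothing to the comparison within blocks, so these 0 calls rest on fewer rabbits. For rabbits with a shared number, the correlations of their departures from the group averages were -0.317, 0.161 and -0.238. Perthes rabbit 2 resembled the control of its own number most, and Perthes rabbits 1 and 3 did not. So few pairs show no pairing by number but cannot exclude it, and the number of control rabbit 3 is itself uncertain.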

Other observations

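Among the genes of the pathway lists, 6 had a row but did not pass the filter on low counts, one of them *IL6*. The alarmin *IL33* averaged 0.195 ± 0.191 CPM over 5 Perthes rabbits and 0.139 ± 0.106 CPM over 3 controls (mean and SD), and the IL36 antagonist *IL36RN* had 0.0710 ± 0.0354 and 0.0937 ± 0.0741 CPM. The TNF relative *LTA* had 0.158 ± 0.120 CPM in Perthes rabbits and 0.0796 ± 0.0703 CPM in controls. The growth factor gene *CSF2* had 3 counts in all Perthes rabbits together and 2 in the controls, and the sensor *NLRC4* had 3 and 0.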
